A study of Mus musculus with 4 samples.

Results

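The 10 genes described here are expressed by the endothelial cells that line brain vessels and form the blood-brain barrier, and comprise *Cldn5*, *Esam*, *Cdh5*, *Pecam1*, *Kdr*, *Flt1*, *Tek*, *Slc2a1*, *Mfsd2a* and *Abcb1a*. They were chosen by gene symbol through GENCODE M21 out of 55573 Ensembl mouse genes, and all 10 were found in the deposited counts. RNA was sequenced from tdTomato-positive cells sorted by FACS from the dissociated basal telencephalon of mouse embryos at E16, where the day of insemination counts as E1. WT and KO embryos both carried *Hmx3-Cre* and the tdTomato reporter on a C57BL/6J background. WT embryos had wild-type *Dnmt1*, and KO embryos had *Dnmt1* loxP2 alleles, in which Cre removes exons 4 and 5 and leaves a null allele. Deletion and reporter are therefore restricted to the *Hmx3*-expressing lineage and its descendants, and the labelled cell type is a premature interneuron, not an endothelial cell. There were 2 libraries per genotype, from cells pooled over 12 WT and 6 KO embryos. The labels call the libraries biological replicates and the methods call them technical duplicates of pools, so that the p-values measure the spread between these libraries only.

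Endothelial cells of the brain are held together by tight junctions, built around claudin-5, and by adherens junctions, built around VE-cadherin. They respond to VEGF through KDR and FLT1 and to angiopoietins through TEK. Since the junctions close the paracellular route, nutrients such as glucose and docosahexaenoic acid cross through carriers, while efflux pumps return foreign compounds to the blood. Wnt7a and Wnt7b from neural cells instruct this barrier programme in the growing vessels.

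The library totals ranged from 8075102 to 9995968 counts, and 3 counts, the upper limit that a count of 0 allows, corresponded to between 0.294 and 0.372 CPM (reads of a gene relative to the size of its library after TMM scaling). This limit covers counting error only. WT replicate 1 stood apart with 8.66% of its counts on mitochondrial rRNA, against 1.51% to 2.32% in the other libraries. The 2 WT libraries also differed from each other more than the 2 KO libraries did. The chi-square per degree of freedom against proportional counts was 57.2 in WT and 4.28 in KO. *Dnmt1* had 385 and 446 CPM in WT and 283 and 281 CPM in KO, and the log2 fold change of -0.56 did not pass the threshold (edgeR adjusted p = 0.0511), although it passed in 7 of 10 alternative fits of all libraries and in 2 of 4 that leave out a library. edgeR's quasi-likelihood test was run on the 16832 genes that passed its expression filter. At a Benjamini-Hochberg adjusted p under 0.05, 1233 genes were higher and 96 were lower in KO, or 1852 and 880 once gene length and GC content were corrected for. Without WT replicate 2 the excess of higher calls was gone, with 2029 genes higher and 2180 lower.

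Both genes that passed the threshold encode carriers of the barrier, *Slc2a1* and *Mfsd2a*. Of the 10 genes, 9 passed the expression filter, and these 2 were called higher in KO, by 3.12-fold and 2.62-fold in mean CPM. Over all tested genes, 7.9% were called, 7.33% higher and 0.57% lower. None of the 10 genes was called lower by edgeR, DESeq2 or limma-voom, whereas at an unadjusted edgeR p under 0.05, which 22.7% of all tested genes reached, 4 were higher (also *Flt1* and *Abcb1a*) and 2, *Cldn5* and *Kdr*, were lower. *Abcb1a* and *Tek* passed the expression filter only through the KO libraries and *Cldn5* only through the WT libraries, so that these counts describe the tested genes and support nothing further. The median log2 fold change of the 9 tested genes, to which the same limit applies, was 1.11, and that of all tested genes was -0.03. As the RNA comes from bulk samples, a different number of cells of a type and a different amount of RNA per cell cannot be told apart. The 2 genes that rose made up 61.6% and 67.7% of the summed CPM of the 10 genes in WT and 81.2% and 80.7% in KO. Without them, a split made after the values were seen, the other 8 genes summed to 21.5 and 22.2 CPM in WT and to 25.9 and 27.4 CPM in KO.

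**Figure D1:**
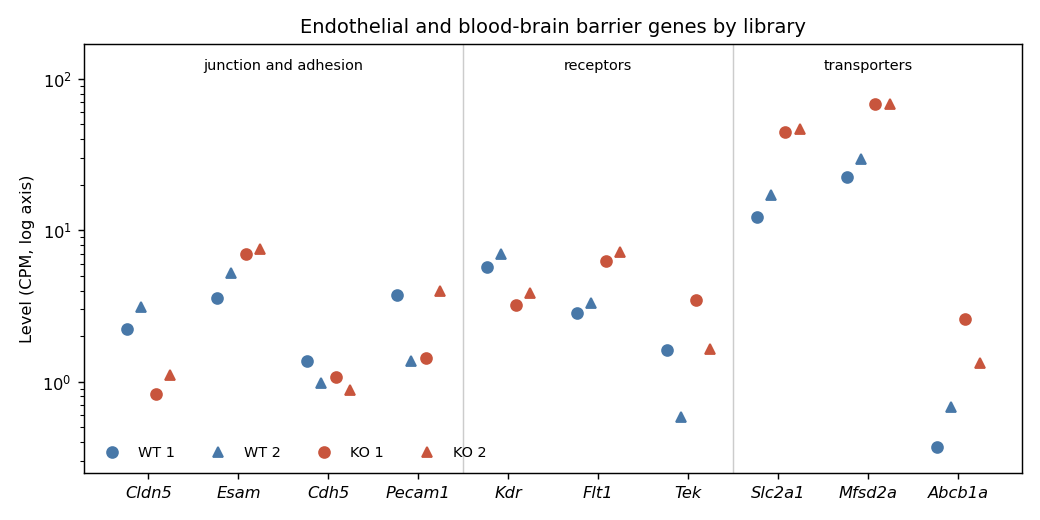
Level of each of the 10 genes in CPM (log axis) in the 4 libraries, with WT in blue, KO in red, circles for replicate 1 and triangles for replicate 2. *Slc2a1* and *Mfsd2a* lie highest in every library, and their KO libraries lie well above their WT libraries, whereas WT and KO of *Cdh5* and *Pecam1* overlap.

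*Slc2a1* encodes GLUT1, the main glucose carrier of the barrier, which astrocytes and erythrocytes also use. On GRCm38, the build of all positions here, it occupies chromosome 4 between 119108711 and 119137983, plus strand. It had 98 and 174 counts in WT against 374 and 423 in KO. These correspond to 14.6 ± 3.45 CPM in WT (SD, n = 2) against 45.5 ± 1.501 CPM in KO. Both KO libraries were high, and the genotypes did not overlap. The log2 fold change of *Slc2a1* was 1.63 (standard error 0.21, 95% interval 1.15 to 2.11, edgeR adjusted p = 0.00202). An antisense gene, *Gm12868*, overlaps 2.99% of the exonic bases of *Slc2a1* and had at most 2 counts in any library.

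*Mfsd2a* encodes the carrier that takes docosahexaenoic acid into the brain as lysophosphatidylcholine and that limits transcytosis in brain endothelium. It lies on chromosome 4 from 122946850 to 122961188 on the minus strand. It had 180 and 302 counts in WT against 570 and 621 in KO. Their mean levels were 26.0 ± 5.12 CPM and 68.1 ± 0.444 CPM (SD, n = 2 each). As for *Slc2a1*, the KO libraries lay close to each other and above both WT libraries. The log2 fold change of *Mfsd2a* was 1.39 (standard error 0.18, 95% interval 0.97 to 1.801, edgeR adjusted p = 0.0022). The calls of both genes held in the 10 alternative fits of all libraries, with adjusted p-values of at most 0.0027. When a library was left out, the log2 fold change stayed between 1.41 and 1.89 for *Slc2a1* and between 1.19 and 1.60 for *Mfsd2a*.

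The promoters of these 2 genes, which changed together, are given here with that of *Cldn5*, whose KO libraries lay on the other side of WT. The sequences are from RefSeq on GRCm38.p6, run 5′ to 3′ on the strand of the gene up to the transcription start, and have each CpG, the dinucleotide that DNMT1 keeps methylated, in capitals. That of *Slc2a1* ends before the GENCODE start, which lies 34 bases ahead of the RefSeq start. No methylation data were analysed here.
*Slc2a1* chr4:119108495-119108710, plus strand: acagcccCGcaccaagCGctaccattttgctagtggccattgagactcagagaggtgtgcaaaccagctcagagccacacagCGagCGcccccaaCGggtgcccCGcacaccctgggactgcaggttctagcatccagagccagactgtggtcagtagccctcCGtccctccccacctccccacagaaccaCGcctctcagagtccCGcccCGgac
*Mfsd2a* chr4:122961189-122961438, minus strand: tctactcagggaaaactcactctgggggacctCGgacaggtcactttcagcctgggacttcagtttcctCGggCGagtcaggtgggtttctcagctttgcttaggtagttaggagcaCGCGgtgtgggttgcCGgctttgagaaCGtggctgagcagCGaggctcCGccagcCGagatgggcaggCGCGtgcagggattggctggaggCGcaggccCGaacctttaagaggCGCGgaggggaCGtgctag
*Cldn5* chr16:18776597-18776846, plus strand: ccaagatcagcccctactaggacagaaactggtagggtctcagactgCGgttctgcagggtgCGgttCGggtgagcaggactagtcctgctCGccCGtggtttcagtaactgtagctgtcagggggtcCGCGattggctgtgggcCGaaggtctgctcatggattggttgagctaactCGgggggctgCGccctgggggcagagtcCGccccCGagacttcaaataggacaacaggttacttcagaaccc

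In the 250 bases before the RefSeq start, *Slc2a1* held 13 CpGs, *Mfsd2a* 17 and *Cldn5* 12, against a median of 6 over 32851 promoter windows. Windows were matched for 7 of the 10 genes. *Flt1* held 23 CpGs, *Kdr* 16 and *Tek* 2. The window of *Abcb1a* held 0 CpGs, but its RefSeq start lies 92986 bases ahead of the GENCODE start of the gene. The genes that rose thus lay within the range of the other 5 in CpG number. ACGTG, the core of the hypoxia response element, was searched on both strands and occurred once in *Slc2a1*, 36 bases before the RefSeq start and partly beyond the printed sequence, and at 107 and 9 bases before the start of *Mfsd2a*. It was not found in the other 5 windows and is held by 16.6% of all windows of this length. AGGAAG, a core of ETS factor motifs, was found on either strand in *Flt1* and *Abcb1a* and in 29.5% of all windows.

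The third carrier, *Abcb1a*, encodes a P-glycoprotein, the efflux pump on the luminal side of the barrier. It had 3 and 7 counts in WT against 22 and 12 in KO, or 0.372 and 0.686 CPM in WT and 2.62 and 1.32 CPM in KO. The genotypes did not overlap, but the levels were near the limit of 3 counts, and the log2 fold change of 1.83 did not pass the threshold (95% interval 0.24 to 3.43, edgeR adjusted p = 0.166). *Abcb1b*, its close paralog, shares 15.5% of the 50-base words of the *Abcb1a* transcript. Reads on shared stretches may have been dropped or assigned to either gene, so that the counts of both are uncertain. *Abcb1b* had 3 and 13 counts in WT against 16 and 10 in KO, and *Abcb4*, the third gene of the cluster, had 44 and 54 in WT and 47 and 31 in KO. In both of these the genotypes overlapped.

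Among the receptors, *Flt1* and *Kdr*, which bind the same ligand VEGF-A, lay on opposite sides of WT without passing the threshold. *Kdr* encodes VEGFR2, the main signalling receptor for VEGF-A, and lies on chromosome 5 from 75932827 to 75978458. It had 46 and 71 counts in WT against 27 and 35 in KO, or 5.71 and 6.96 CPM against 3.21 and 3.85 CPM. Both KO libraries were below both WT libraries, and the log2 fold change was -0.84 (95% interval -1.66 to -0.03, edgeR adjusted p = 0.207). *Flt1* encodes VEGFR1, which binds VEGF-A tightly and acts in large part as a decoy, and lies on the same chromosome from 147561604 to 147726011. It had 23 and 34 counts in WT against 53 and 65 in KO, or 2.86 and 3.33 CPM against 6.30 and 7.16 CPM. Here both KO libraries were above both WT libraries, and the estimate was 1.11 on the log2 scale (95% interval 0.30 to 1.92, edgeR adjusted p = 0.107). Without WT replicate 2, *Flt1* passed (adjusted p = 0.0249), while in the other 13 alternative fits it did not.

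*Tek* encodes TIE2, the receptor for the angiopoietins. It had 13 and 6 counts in WT against 29 and 15 in KO, or 1.61 and 0.588 CPM against 3.45 and 1.65 CPM. The lower KO library lay just above the higher WT library. The log2 fold change of *Tek* was 1.23 (95% interval -0.35 to 2.81, edgeR adjusted p = 0.329), and between 0.62 without KO replicate 1 and 2.08 without WT replicate 1, so that the data allow a lower as well as a higher level in KO.

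The junction and adhesion genes summed to 10.9 and 10.7 CPM in WT and to 10.3 and 13.4 CPM in KO, and none of the 3 tested passed the threshold. The 3 receptors had similar sums, with 10.2 and 10.9 CPM in WT and 13.0 and 12.7 CPM in KO. *Cldn5* encodes claudin-5, the main tight junction protein of the barrier, and lies on chromosome 16 from 18776847 to 18778262. It had 18 and 32 counts in WT against 7 and 10 in KO, or 2.23 and 3.14 CPM against 0.832 and 1.10 CPM. Both KO libraries were low. The log2 fold change of *Cldn5* was -1.46 (standard error 0.56, 95% interval -2.75 to -0.18, edgeR adjusted p = 0.168), and it stayed between -1.69 and -1.20 when each library was left out.

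*Esam*, which encodes an adhesion molecule of endothelial tight junctions, had 29 and 53 counts in WT against 59 and 68 in KO. At 3.60 and 5.19 CPM in WT and 7.01 and 7.49 CPM in KO the genotypes did not overlap, and the log2 fold change was 0.71 (95% interval -0.07 to 1.495, edgeR adjusted p = 0.258). *Pecam1*, which encodes CD31, an adhesion molecule that platelets and leukocytes share with endothelium, had 30 and 14 counts in WT against 12 and 36 in KO. A high and a low library were present in each genotype, at 3.72 and 1.37 CPM in WT and 1.43 and 3.96 CPM in KO. The log2 fold change of *Pecam1* was 0.11 (95% interval -1.43 to 1.65, edgeR adjusted p = 0.944), and its sign depended on the library, with -0.80 without KO replicate 2 and -0.46 without WT replicate 2. *Cdh5*, which encodes VE-cadherin, did not pass the expression filter with 11 and 10 counts in WT against 9 and 8 in KO. Its libraries overlapped at 1.37 and 0.98 CPM in WT and 1.07 and 0.881 CPM in KO, and a change was not detectable at this depth.

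Counted by position alone, both KO libraries lay above both WT libraries in 6 of the 10 genes and below them in 2, while *Cdh5* and *Pecam1* overlapped. Among all tested genes the shares were 28.3% and 25.2%.

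**Figure D2:**
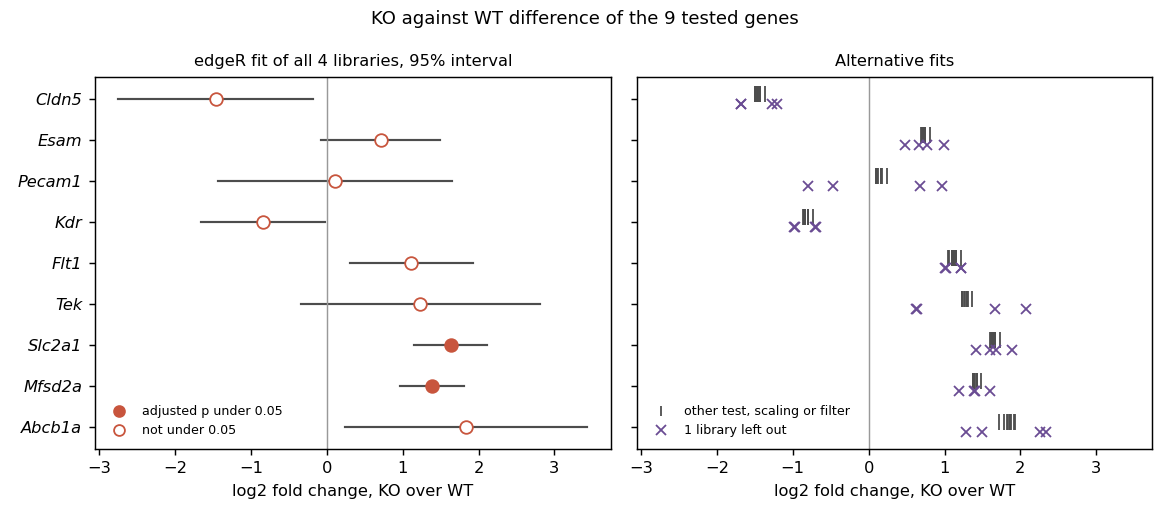
Log2 fold change of KO over WT for the 9 tested genes. Left, edgeR estimates from the 4 libraries with 95% intervals that are not adjusted for the number of genes, filled where the adjusted p was under 0.05. Right, the same genes in alternative fits, with ticks for another test, scaling, filter or correction and crosses for fits that leave out 1 library. The estimates of *Slc2a1* and *Mfsd2a* stay above 1 throughout, while those of *Pecam1* fall on both sides of 0.

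Per kilobase of exons, which allows levels to be compared between genes, *Mfsd2a* and *Slc2a1* were also the most abundant of the 10 genes in both genotypes. In WT, the level of *Mfsd2a* was 11.5 ± 2.28 CPM per kb (SD, n = 2), that of *Slc2a1* was 4.17 ± 0.985 and that of *Cldn5* was 1.896 ± 0.450. *Esam* followed with 1.53 ± 0.393 CPM per kb and overlapped with *Cldn5*. *Kdr* had 0.701 ± 0.0976 CPM per kb, and *Pecam1*, *Cdh5*, *Tek* and *Flt1* lay between 0.229 and 0.409, each overlapping with the next in this order. *Abcb1a* was lowest with 0.0966 ± 0.0404 CPM per kb. In KO, *Mfsd2a* had 30.3 ± 0.197 CPM per kb, *Slc2a1* 12.98 ± 0.428 and *Esam* 2.53 ± 0.117, each apart from the next. The other 7 genes, from *Cldn5* with 0.683 to *Cdh5* with 0.232 CPM per kb, overlapped with their neighbours in the order.

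Further vascular genes were taken from 5 lists with 60 genes in all, chosen by function. Of these, 49 were tested, 9 were called higher in KO, against 7.33% of all tested genes, and 7 when every library needed 10 counts, since *Sox7* and *Slco1c1* passed the expression filter only through the KO libraries. None fell with edgeR, DESeq2 or limma-voom, while 19 were higher and 2 lower at an unadjusted edgeR p under 0.05, the level that 22.7% of all tested genes reached. Among the 19, *Mmrn2*, *Slco1a4* and *Slc22a8* also passed the filter only through the KO libraries, so that this count supports nothing further. The median log2 fold change of the 49 tested genes was 0.30. In 25 of the 60 genes both KO libraries lay above both WT libraries, and in 16 below, against 28.3% and 25.2% of all tested genes. The share of 7.33% called higher over all tested genes also stands beside the counts of each list below.

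Among 12 angiogenic ligands and receptors, 10 were tested and only *Vegfa*, the ligand of KDR and FLT1, rose. It had 91.1 and 98.3 CPM in WT and 345 and 346 CPM in KO, which is 1.87 on the log2 scale (edgeR adjusted p = 9.4e-05). The other VEGF ligands did not pass the threshold. *Vegfb* had 15.9 ± 1.54 CPM in WT (SD, n = 2) against 19.7 ± 0.393 in KO, *Vegfc* 2.25 ± 0.554 and 1.18 ± 0.826, and *Pgf* 8.13 ± 2.36 and 7.33 ± 0.396. Of the TEK ligands, *Angpt1*, the agonist, had 4.87 ± 2.59 CPM in WT and 4.92 ± 2.13 in KO. Its log2 fold change of 0.03 changed sign with the library left out, and an antisense gene overlaps 14.2% of its exonic bases. *Angpt2*, the context-dependent antagonist, had 3.82 ± 1.797 CPM in WT and 7.86 ± 3.17 in KO (edgeR adjusted p = 0.217). It passed without WT replicate 1 (adjusted p = 0.00146) and with the block and correction (adjusted p = 0.0279). The co-receptors *Nrp1* and *Nrp2*, which also guide migrating neurons as semaphorin receptors, had 273 ± 16.6 and 341 ± 22.4 CPM in WT and 227 ± 1.48 and 261 ± 10.8 in KO, and neither passed, although both did without WT replicate 1 and *Nrp2* also with the length and GC correction. *Vegfd* had 0 counts in WT and 4 and 17 in KO, and was not tested in the main edgeR fit. It was called higher when no filter was used.

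Of 20 further genes of endothelial identity, 12 were tested and *S1pr1* rose. *Sox7* was called as well, but passed the expression filter only through the KO libraries. *S1pr1*, a sphingosine-1-phosphate receptor that astrocytes also express, had 9.31 and 9.90 CPM in WT and 259 and 236 CPM in KO, which is a difference of 4.68 on the log2 scale (edgeR adjusted p = 4.13e-06). *Sox7*, an endothelial transcription factor, was without counts in WT and had 13 and 10 in KO, so that its mean level in KO was at least 3.97-fold higher when 3 counts per library are taken for WT. When either KO library was left out, *Sox7* no longer passed the filter. The list summed to 39.5 and 47.3 CPM in WT against 293 and 271 CPM in KO. Apart from *S1pr1*, left out after its values were seen, the other 19 genes summed to 30.2 and 37.4 CPM in WT and to 34.1 and 35.1 CPM in KO, where the genotypes overlapped. *Rasip1*, an endothelial Ras-interacting protein, had 7.62 ± 0.590 CPM in WT (SD, n = 2) against 5.40 ± 1.24 in KO (edgeR adjusted p = 0.407), with exons that other genes overlap.

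Among the 9 tight junction genes, all tested, 2 rose, among them *Tjp1*, a scaffold gene that epithelial and neural cells also express. *Tjp1* had 101 and 82.5 CPM in WT and 155 and 172 CPM in KO, or 0.83 as log2 fold change (edgeR adjusted p = 0.0154, and 0.128 without KO replicate 2). *Jam2*, a junctional adhesion molecule, had 32.8 and 21.3 CPM in WT against 49.6 and 46.9 in KO and did not pass (edgeR adjusted p = 0.0587), although it passed in 9 of the 10 alternative fits of all libraries, DESeq2 and limma-voom included, and in 2 of 4 without a library.

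Of the 10 further barrier transporters, all tested, *Slco1c1*, *Abcc4* and *Slc3a2* rose. *Slco1c1*, the thyroxine carrier that barrier endothelium shares with astrocytes, had 11 and 8 counts in WT against 1044 and 1105 in KO, at mean levels of 1.07 ± 0.411 and 123 ± 1.71 CPM, SD, n = 2 (log2 fold change 6.86, edgeR adjusted p = 4.13e-06). *Abcc4*, an efflux pump for organic anions, had 20 and 33 counts in WT against 94 and 76 in KO (log2 fold change 1.76, edgeR adjusted p = 0.0182, and 0.111 without KO replicate 1). *Slc3a2*, the heavy chain of amino acid carriers, had 57.5 and 60.2 CPM in WT and 97.0 and 96.3 CPM in KO (log2 fold change 0.72, edgeR adjusted p = 0.0177, and 0.170 without either KO library). *Bsg*, which encodes basigin, had 147 ± 15.8 CPM in WT and 129 ± 1.56 in KO (edgeR adjusted p = 0.496).

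Of 9 genes by which Wnt signals reach brain endothelium, 8 were tested and *Fzd4*, a receptor for Norrin and Wnt ligands, rose. It had 17 and 33 counts in WT against 86 and 74 in KO (log2 fold change 1.76, edgeR adjusted p = 0.0226, and 0.102 without KO replicate 1). The ligand *Wnt7a* had 35.5 ± 1.98 CPM in WT (SD, n = 2) against 53.3 ± 2.78 CPM in KO, or 0.58 as log2 fold change (edgeR adjusted p = 0.0615), and passed in 6 of the 10 alternative fits of all libraries and in 2 of 4 without a library. *Wnt7b* had 57.8 ± 6.32 CPM in WT and 60.2 ± 1.47 CPM in KO, where the libraries overlapped (edgeR adjusted p = 0.868).

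**Figure D3:**
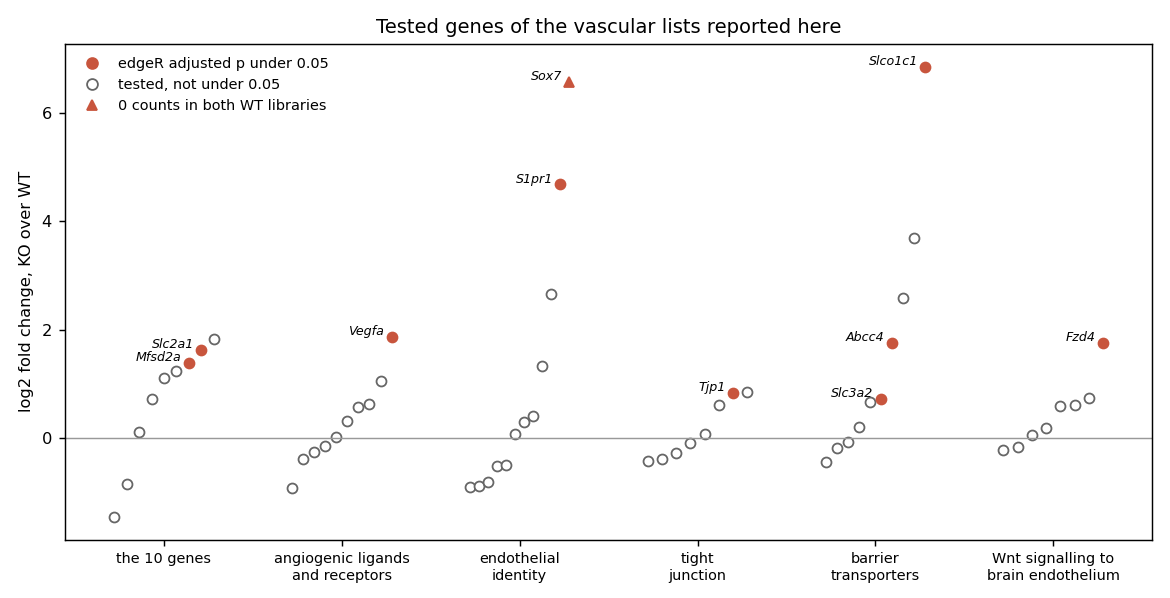
Log2 fold change of KO over WT for the tested genes of the 10 described and of the 5 further vascular lists, each list sorted by value and 1 tight junction gene not shown. Filled symbols mark an edgeR adjusted p under 0.05 and carry the gene name. *Slco1c1* and *S1pr1* stand highest beside *Sox7*, drawn as a triangle because its WT libraries had 0 counts and its fitted value is therefore not a measured ratio.

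Marker genes of other cells that the sort could hold were examined beside these genes. The counts of called markers stand against 7.33% of all tested genes called higher and 0.57% called lower. The neuronal markers of the labelled cell type were abundant, with a sum of 6507 and 5879 CPM over 10 genes in WT and 4484 and 4426 in KO, including *Map2*, *Tubb3* and *Dcx*, and 2 of the 10 fell. The 9 astrocyte markers were all called higher, *Gfap* and *Aqp4* after passing the filter only through the KO libraries, from a sum of 241 and 231 CPM in WT to 3802 and 3601 CPM in KO. *Slc1a2*, *Slc1a3* and *Fgfr3* were among them, and *Gfap* had 0 counts in WT. Of 9 mural cell markers 7 rose, and their sum went from 315 and 335 CPM to 739 and 802 CPM. *Cspg4*, with 252 and 263 CPM in WT and 320 and 379 CPM in KO, made up most of the WT sums but was not among them. *Rgs5* and *Pdgfrb* were, with log2 fold changes of 2.34 and 2.88. Of 7 oligodendrocyte lineage markers 4 rose, from a sum of 1018 and 1070 CPM to 1602 and 1582 CPM. *Pdgfra* and *Olig1* stood at 0.21 and 0.46 on the log2 scale without passing in the edgeR fit of all libraries.

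Of the 9 microglia and macrophage markers 1, *Csf1r*, rose (edgeR adjusted p = 0.0474), a call that was lost with limma-voom (adjusted p = 0.0535) and without KO replicate 2 (adjusted p = 0.484). Their sum was 30.7 and 38.3 CPM in WT and 62.4 and 61.3 CPM in KO. Both KO libraries lay above both WT libraries in 4 of these 9 genes, and in the other 5 the genotypes overlapped. *Cx3cr1* had 4.59 and 8.03 CPM in WT against 12.4 and 14.4 in KO, and *C1qc* had 2.11 and 6.37 against 10.1 and 3.74, and neither passed with edgeR on all libraries. Of 6 erythroid markers 1, *Hbb-bs*, fell with edgeR, though not without KO replicate 2 (adjusted p = 0.122), and the sum of the list was 30.8 and 44.7 CPM in WT and 18.9 and 19.2 CPM in KO. *Hbb-bt* had 4.10 and 10.5 CPM in WT against 2.38 and 0.220 in KO, while *Alas2* had 7.08 and 9.01 against 9.04 and 9.69. Of 7 choroid plexus markers 1, *Ttr*, fell, and their sum went from 54.6 and 70.7 CPM to 8.56 and 9.36 CPM, while *Otx2* and *Kl* were not called with edgeR on all libraries. *Ttr* alone had 40.8 and 55.3 CPM in WT and 0.951 and 1.10 CPM in KO. The platelet markers *Pf4*, *Ppbp* and *Gp9* had 0 counts in every library, and *Itga2b* had 25 and 17 counts in WT against 22 and 41 in KO. Of 5 fibroblast markers, none of the 3 tested passed with edgeR on all libraries, while *Col1a1* had an unadjusted p under 0.05. *Col1a2* had 15.9 ± 0.686 CPM in WT against 19.9 ± 0.620 in KO. The sum of the list, mostly *Pdgfra*, which the oligodendrocyte list also holds, was 754 and 740 CPM in WT and 880 and 858 CPM in KO. Both KO libraries lay above both WT libraries in 3 of the 5 genes. *Dcn* had 7 and 19 counts in WT against 2 and 9 in KO, and *Lum* 4 and 0 against 0 and 1. These 2 overlapped between genotypes and were not tested.

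Among the markers called, *Acta2* of the mural and *Mag* of the oligodendrocyte list also passed the filter only through the KO libraries, and *Ttr* only through the WT libraries. Several of the named markers that edgeR did not call on all libraries passed in some alternative fits, namely *Hbb-bt* in 6 of 9 of all libraries (DESeq2 included) and 3 of 4 that leave out a library, *Col1a1* in 5 of 10 and 2 of 4, *Cx3cr1* in 5 of 10 and 1 of 4, and *Otx2* in 4 of 10 and 2 of 4. *Olig1*, *Cspg4*, *C1qc*, *Map2*, *Tubb3* and *Dcx* each passed in at least 1 such fit. The sums of the astrocyte, mural, oligodendrocyte, microglia and fibroblast markers were thus higher in both KO libraries, as were *Slc2a1* and *Mfsd2a*. In the microglia and fibroblast lists, some genes overlapped between genotypes. The part of such cells in these differences was not tested.

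**Figure D4:**
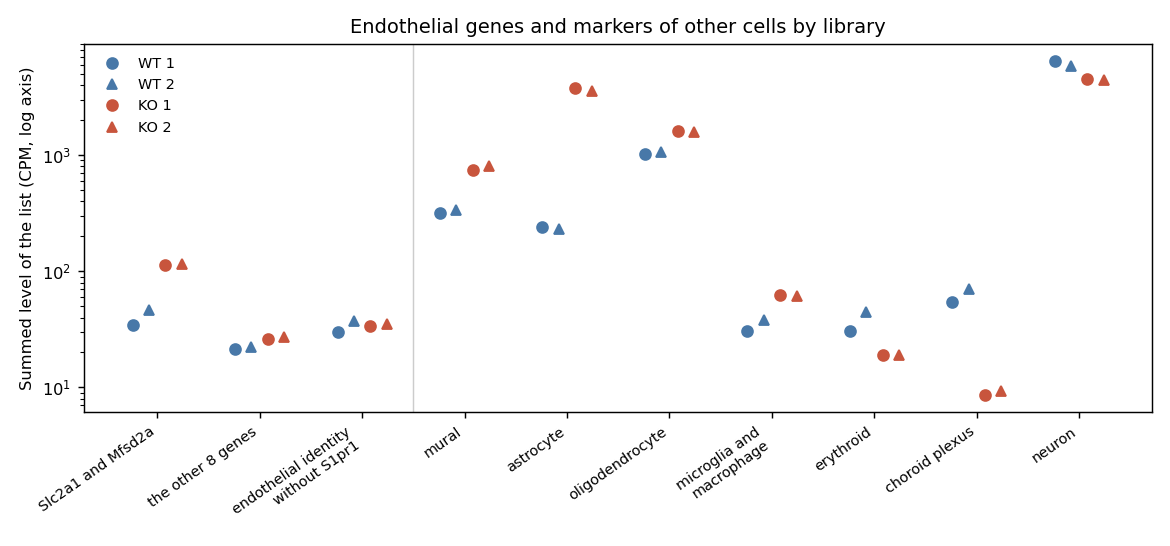
Summed level in CPM (log axis) of gene lists in the 4 libraries, with symbols as in the plot of levels by gene. To the left of the line are *Slc2a1* with *Mfsd2a*, the other 8 of the 10 genes, and the endothelial identity list without *S1pr1*. To the right are markers of other cells, among which the astrocyte list rises from 241 and 231 CPM in WT to 3802 and 3601 CPM in KO, while the other 8 genes have 21.5 and 22.2 CPM in WT and 25.9 and 27.4 CPM in KO.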

How the data were processed

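RNA was sequenced from sorted tdTomato-positive cells, with 2 WT and 2 KO libraries grouped by the sample titles. The values deposited by the authors are raw counts of reads for each Ensembl gene, not normalized. The submitters' processing notes name CASAVA 1.8.2, STAR 2.5.2a, featureCounts 1.5.0-p1 and GRCm38 (mm10). The annotation release and the strand setting are not given in the sources used here, and counting on both strands would add antisense reads.

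Symbols, positions and exon lengths were taken from GENCODE M21, which matched 55480 of 55573 identifiers. Genes passing edgeR's expression filter were normalized by TMM and compared with edgeR 4.0.16 (quasi-likelihood test, limma 3.58.1, R 4.3.3) with genotype as the only term, and p-values were adjusted over all 16832 tested genes. Standard errors and 95% intervals were derived from the test statistic. No permutation test was run, since 2 against 2 libraries cannot give an exact two-sided p under 0.333. Alternatives were DESeq2 1.42.0, limma-voom, other scalings and filters, the replicate block, a loess correction for gene length and GC content, other thresholds and leaving out each library. The fits were tested on simulated counts with known changes.

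The genes and lists were chosen with earlier results of these data known. Besides the 10 genes, the text names the targeted gene, the paralogs of *Abcb1a*, the VEGF, angiopoietin and Wnt7 ligands, per vascular list up to 5 called genes with the largest change and the 2 with the highest mean CPM over all 4 libraries, and per marker list the 3 with the highest. *Vegfd*, *Mmrn2*, *Slco1a4*, *Slc22a8*, *Gfap*, *Aqp4*, *Acta2*, *Mag*, *Gp9*, *Dcn* and *Lum* were named after their values were seen. The values of 2 genes that this rule selects are not reported here.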

Additional observations from a re-analysis of the deposited data

How the results depend on the processing

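*Slc2a1* and *Mfsd2a* passed in all 14 alternative fits and at an adjusted p under 0.01 and 0.1, and the number of the 10 genes called was 2 in each except without WT replicate 2, where *Flt1* made it 3 (range 2 to 3 when a library was left out). Fits without 1 library assume that the lone library varies like the others. Without a WT library, the spread comes from the 2 KO libraries alone, which lay closer to each other than the WT libraries. The number of all genes called, 1329, became 883 when every library needed 10 counts, 2363 with no filter, 2244 with the replicate block, 2732 with the length and GC correction, 3257 with both, 740 at an adjusted p under 0.01, and between 951 and 4209 when a library was left out (3878 without WT replicate 1 and 4209 without WT replicate 2). The share called higher was 92.8%, and 83.5% with DESeq2, 75.8% with no filter, 72.4% with the replicate block, 67.8% with the correction, 63.6% with both, 66.5% without WT replicate 1 and 48.2% without WT replicate 2. The 9 further vascular genes called higher became 16 with no filter, 14 with the correction, 18 with the block and correction, 4 at an adjusted p under 0.01, and 6 to 18 without a library (18 without WT replicate 1, 12 without WT replicate 2). Called lower were 0 of them, but 1, *Nrp2*, with the correction and with both, and 0 to 2 without a library. *Slco1c1* and *Sox7* were not tested with at least 10 counts in every library. The cause of these differences was not tested.

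The log2 fold change of *Wnt7b* (0.056) was -0.081 with the correction and -0.085 with block and correction. When a library was left out, it was between -0.058 and 0.162 for *Wnt7b*, -0.80 and 0.97 for *Pecam1*, -0.48 and 0.68 for *Angpt1*, -0.19 and 1.69 for *C1qc*, -0.10 and 0.46 for *Kl*, -0.43 and 0.17 for *Pgf*, and -0.640 and 0.061 for *Abcb4*. The deviations of same-numbered libraries from their genotype correlated with 0.137 over 16832 genes, but nothing else pairs them, and the replicate block changed no call among the 10 genes. At counts as low as those of *Cdh5* and *Abcb1a*, small differences were not detectable.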
